A study of Mus musculus with 6 samples.

Results

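2838c3 is 1 of 3 mouse pancreatic ductal adenocarcinoma cell lines in the series, and its expression profile was set against those of the other lines, 6419c5 and 6499c4. Its members are both of its libraries, 2 of 6 in all. The first came from cells given vehicle (the solvent DMSO) and the second from cells given 250 nM G-1, a small molecule that activates the oestrogen receptor GPER, both for 16 hours. 6419c5 and 6499c4 each have the same pair of libraries, so that 4 libraries stood on the other side. All cells were at passages 15 to 20, were kept in serum-containing medium and came from 1 source laboratory. The labels give no genotype, strain or sex for any line, and each is a single line in culture. With 1 library per line and treatment, the vehicle and G-1 libraries of a line served as its replicates. Hence p-values measure the spread between these libraries, which may be technical, and say nothing of other tumours.

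A gene was said to differ in 2838c3 only where it differed in the same direction from each of the other lines. Values are FPKM (fragments per kilobase of gene length, on the authors' library scale), given with the vehicle library first and the G-1 library second. Tests used log2(FPKM + 1) in limma, with treatment as a covariate, on the 10748 genes whose mean over the 6 libraries reached 1 FPKM. The larger of both p-values, one for each other line, was adjusted over all genes by the method of Benjamini and Hochberg, and a gene was called at an adjusted p under 0.05. The size given is the log2 difference of 2838c3 from the mean of the other lines, on the log2(FPKM + 1) scale, which understates differences of low genes. A gene whose mean was under 1 FPKM on one side of the comparison passed the level filter through the other side and so had to differ. Its difference is given as a description, without a p. List counts below can include such genes and are descriptions to that extent. The 2838c3 libraries held 8927168 and 8680231 reads in genes, and the other 4 held 5480515 to 8605816. Between 13071 and 13627 genes had a read in any 1 library. Where a gene had 0 reads, up to 3 remain possible, or 0.336 to 0.547 RPM (reads per 1000000 reads in genes), for counting error only.

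As background, PAX2 is a transcription factor that builds the nephric duct and the tubules of the kidney, where cadherin 16, claudin 2 and the endocytic receptor megalin are found later. PDX1 specifies the pancreas and duodenum, CDX2 the intestine, and duct cells of the pancreas carry keratins 7, 8 and 19 and carbonic anhydrase 2. Cells make cholesterol through a chain of enzymes that the factor SREBP2 switches on together, and burn fatty acids in mitochondria through a separate chain.

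Of the 10748 genes tested, 1461 were higher in 2838c3 than in each other line (13.6% of genes tested) and 1373 were lower (12.8%), 2834 in all (26.4%). At 2-fold or more from each line on the log2(FPKM + 1) scale, 214 were higher (1.99%) and 336 lower (3.13%), 550 in all (5.12%). Taken singly, 5533 genes differed from 6419c5 (51.5%) and 5973 from 6499c4 (55.6%). By the same rule 6419c5 stood apart from the other lines in 1450 genes (13.5%) and 6499c4 in 2224 (20.7%); these counts share libraries with those of 2838c3. Both 2838c3 libraries lay above all 4 others in 26% of genes tested and below them in 24.2%. Leaving out the vehicle or the G-1 library of 2838c3 gave 1756 and 1723 calls against both lines, of 6419c5 1541 and 1766, and of 6499c4 2395 and 2365. Against 6419c5 alone the count was 3430 without its vehicle library and 3590 without its G-1 library.

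**Figure D1:**
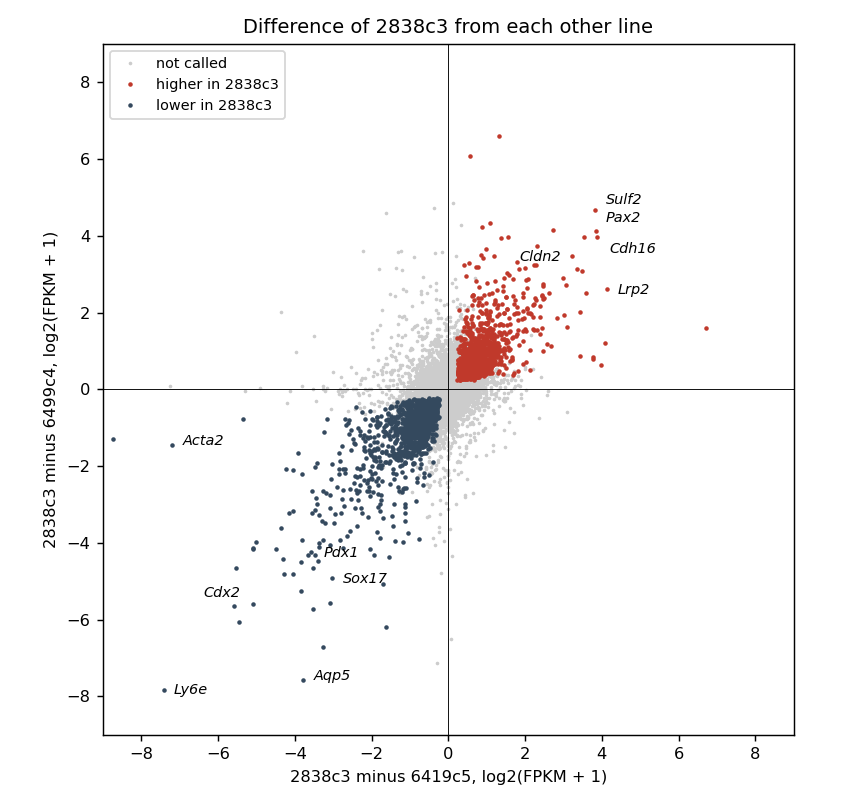
Log2(FPKM + 1) difference of 2838c3 from 6419c5 (horizontal) and from 6499c4 (vertical) for the 10748 genes tested, 1 point per gene, with the 1461 genes called higher in red and the 1373 called lower in dark blue. Both axes use the same 2838c3 libraries, so the slope of the cloud is not a result; Pax2, Cdh16, Sulf2 and Lrp2 lie far to the upper right, and Ly6e, Cdx2 and Aqp5 far to the lower left.

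Pax2, Cdh16, Cldn2 and Lrp2, genes of the nephric and kidney tubule lineage, were higher in 2838c3 than in the other lines, while other genes of that lineage were not. Pax2 stood at 15.6 and 18.4 FPKM in 2838c3, against 0.37 and 0.121 for 6419c5 and 0.0722 and 0 for 6499c4. Both 2838c3 libraries were far above the rest, and the log2 difference was 3.99 (SE 0.16). Cdh16, the gene of kidney-specific cadherin 16, had 382 and 455 reads in 2838c3, against 2 and 1 for 6419c5 and 0 and 0 for 6499c4, a difference of 3.92 (SE 0.15). Cldn2, the pore-forming claudin of leaky epithelia such as the proximal tubule, was read in all lines, at 54.4 and 47.9 FPKM in 2838c3, against 3.74 and 4.37 for 6419c5 and 4.13 and 5.74 for 6499c4 (difference 3.26, SE 0.13, adjusted p = 1.69e-05). Lrp2, the gene of megalin, which takes up filtered proteins, had 29.1 and 22.1 FPKM in 2838c3, against 0.543 and 0.463 for 6419c5 and 3.14 and 3.46 for 6499c4, and here the other lines also differed between themselves (2838c3 minus 6419c5 4.13, minus 6499c4 2.62). In a bulk library, fewer cells of a type and less RNA per cell cannot be told apart, here and below.

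Of the 30 genes listed for this lineage, 11 passed the level filter, 7 of them were called higher and 0 lower, where 13.6% and 12.8% of all genes were. The median difference of the 11 was 1.30, against -0.0030 over all genes tested. Pax2, Cdh16, Sall1 and Gata3 passed the filter through 2838c3 alone and so had to be higher there, which makes this count and median a description only. Sall1, a zinc finger factor of kidney and limb development, had 215 and 186 reads in 2838c3 and 0 in each of the 4 other libraries, at least 39.1-fold higher (per library, with 3 reads as the floor). Gata3, which acts beside Pax2 in the nephric duct, stood at 3.13 and 3.32 FPKM in 2838c3, against 0.435 and 0.4 for 6419c5 and 1.12 and 1.01 for 6499c4 (difference 1.30, SE 0.15). Its call was lost without the G-1 library of 2838c3. Aqp1 and Pkhd1 were not called, with differences of 0.57 and -0.56, and Wt1 was well above 0 in 6419c5 alone, at 14.3 and 13.3 FPKM against 0 to 0.0756 elsewhere.

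Other genes of the list were not detectable in 2838c3 at this depth. Umod, Aqp2, Slc12a3, Slc34a1, Slc22a6, Kl and Bsnd, which mark segments of the mature kidney, and Six2 and Lhx1, of its progenitors, had 0 reads in both of its libraries and at most 2 in any other. Pax8, the partner of PAX2 in the early kidney, had 11 and 7 reads in 2838c3, against 0 and 4 for 6419c5 and 12 and 19 for 6499c4, all below the level filter. Osr1, a marker of the mesoderm that gives rise to kidney, had 21 and 22 reads in 2838c3, against 5 and 4 for 6419c5 and 1 and 0 for 6499c4, and Ret, the growth factor receptor of the nephric duct, 43 and 28 reads in 2838c3, against 4 and 7 for 6419c5 and 11 and 13 for 6499c4; both were under the filter and not tested. Eya1 had 0 reads in both 2838c3 libraries and 5 to 37 in the others. Summed over the 30 genes, the list took 949.6 and 999.5 RPM in the 2838c3 libraries and 221 to 507 in the other 4.

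For each gene only the most upstream listed start was used, here and in the medians below, and other starts were not examined. The 250 bases before the start of 4 genes are shown because these genes were at or near 0 on one side of the comparison, Pax2 and Sall1 in the other lines and Pdx1 and Cdx2 in 2838c3. They are written 5′ to 3′ on the strand of the gene, from RefSeq on GRCm38.p6, with each CG in capitals, the pair of bases that can carry DNA methylation, which was not measured. The windows are chr19:44746351-44746600 (plus strand), chr8:89044163-89044412 (minus), chr5:147269847-147270096 (plus) and chr5:147307250-147307499 (minus).
Pax2: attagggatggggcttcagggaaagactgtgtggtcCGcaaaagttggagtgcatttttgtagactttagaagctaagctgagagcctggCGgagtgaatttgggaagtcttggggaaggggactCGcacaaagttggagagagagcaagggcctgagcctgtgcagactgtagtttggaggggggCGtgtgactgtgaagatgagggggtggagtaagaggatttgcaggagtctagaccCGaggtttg
Sall1: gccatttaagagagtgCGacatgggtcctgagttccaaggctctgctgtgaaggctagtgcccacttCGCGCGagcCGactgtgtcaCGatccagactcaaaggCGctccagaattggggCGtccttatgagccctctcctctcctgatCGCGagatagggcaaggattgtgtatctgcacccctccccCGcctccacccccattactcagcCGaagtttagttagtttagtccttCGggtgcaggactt
Pdx1: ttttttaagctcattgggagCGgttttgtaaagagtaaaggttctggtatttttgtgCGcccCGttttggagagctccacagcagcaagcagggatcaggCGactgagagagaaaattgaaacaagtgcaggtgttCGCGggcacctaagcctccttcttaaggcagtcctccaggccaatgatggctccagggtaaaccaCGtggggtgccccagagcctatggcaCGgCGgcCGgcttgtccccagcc
Cdx2: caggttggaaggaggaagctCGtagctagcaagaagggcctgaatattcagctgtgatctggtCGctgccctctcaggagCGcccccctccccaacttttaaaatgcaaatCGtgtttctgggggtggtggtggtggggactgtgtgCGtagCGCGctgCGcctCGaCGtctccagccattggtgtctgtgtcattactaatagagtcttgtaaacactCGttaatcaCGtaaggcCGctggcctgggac

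These windows hold 5 CG pairs for Pax2, 13 for Sall1, 10 for Pdx1 and 13 for Cdx2, with CG read on one strand, since it is its own reverse complement. Over 27025 genes with a promoter in the RefSeq table the median was 6 per 250 bases, and 91.7% of windows held at least 1 CG. Genes tested had a median of 17 (8237 of 10748 matched), those called higher 18 (1109 of 1461 matched) and those called lower 15 (1055 of 1373 matched). All 4 windows thus held fewer CG pairs than the median gene tested.

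Pdx1, Cdx2, Sox17 and Hnf4g, genes of factors that set endodermal identity, were at or near 0 in 2838c3. Pdx1 had 0 and 4 reads in 2838c3, against 117 and 94 for 6419c5 and 208 and 254 for 6499c4, and Cdx2 had 0 and 1 reads in 2838c3, against 501 and 405 for 6419c5 and 826 and 954 for 6499c4. The log2 differences were -3.91 (SE 0.12) for Pdx1 and -5.33 (SE 0.10) for Cdx2. Sox17, an endoderm and biliary factor, had 0 and 0 reads in 2838c3, against 165 and 203 for 6419c5 and 835 and 1240 for 6499c4, at least 65.9-fold lower in 2838c3. Hnf4g, a nuclear receptor of the gut epithelium, had 1 and 0 reads in 2838c3, against 63 and 59 for 6419c5 and 80 and 73 for 6499c4 (difference -1.67, SE 0.16). In each of these genes the lowest of the 4 other libraries was far above both 2838c3 libraries.

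Other endodermal factors did not all follow. Of 15 pancreatic lineage factors tested, 5 were lower (Pdx1, Sox17, Hnf4g, Gata6 and Nr0b2, the last at -1.96) and 2 higher (Hhex and Hnf4a). These are 33.3% and 13.3%, where 12.8% and 13.6% of all genes were. Pdx1, Sox17, Hnf4g and Nr0b2 passed the level filter through the other lines alone and so had to be lower, which makes the lower count a description only. Gata6, a factor of the classical pancreatic tumour state, stood at 13.7 and 12.7 FPKM in 2838c3, against 25.6 and 28.9 for 6419c5 and 20.8 and 26.3 for 6499c4 (difference -0.89, SE 0.10, adjusted p = 0.00257). Hnf4a stood at 119 and 122 FPKM in 2838c3, against 93.1 and 89.4 for 6419c5 and 67.1 and 72.7 for 6499c4 (difference 0.59, SE 0.06, adjusted p = 0.00662), and its adjusted p was 0.0506 without the G-1 library of 2838c3 and 0.0722 without that of 6419c5. Hhex had a difference of 1.04 (SE 0.15, adjusted p = 0.00931), with an adjusted p of 0.0821 without the vehicle library of 2838c3 and 0.0641 without the G-1 library of 6499c4. Foxa2, a pioneer factor of endoderm, stood at 30.03 and 27 FPKM in 2838c3, against 32.1 and 28.4 for 6419c5 and 23.5 and 27.2 for 6499c4, and Foxa1, Foxa3, Gata4, Onecut2, Sox9 and Hes1 were also not called, with differences of -0.08 to 0.66. Of 17 gastric and intestinal genes tested, 6 were lower (35.3%) and 1 higher (5.88%), and fewer were called without the G-1 library of 2838c3. Among the lower genes, Cdx2, Hnf4g and Lgals4 passed the level filter through the other lines alone. Cdh17, the cadherin of intestinal epithelium, had 88.8 and 78.2 FPKM in 2838c3, against 158 and 161 for 6419c5 and 269.9 and 253 for 6499c4 (difference -1.28, SE 0.06, adjusted p = 0.000198).

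**Figure D2:**
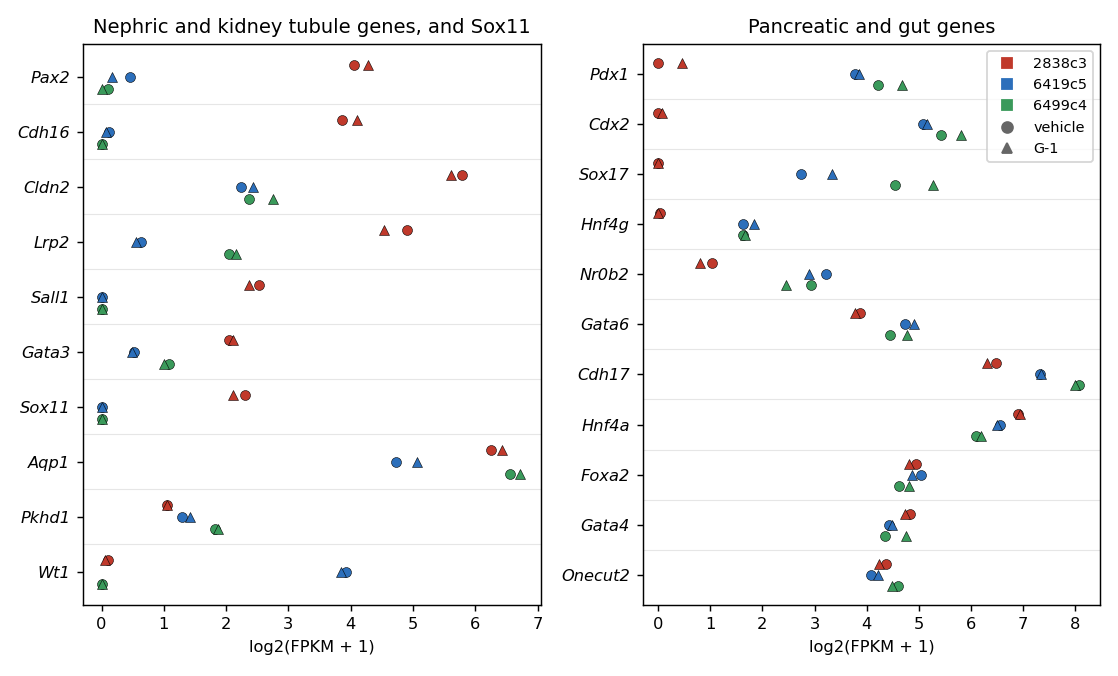
Log2(FPKM + 1) of nephric and kidney tubule genes with Sox11 (left) and of pancreatic and gut genes (right) in the 6 libraries, 1 point per library (circles vehicle, triangles G-1; red 2838c3, blue 6419c5, green 6499c4). Pax2, Cdh16, Sall1 and Sox11 were near 0 in every library but those of 2838c3, where Pdx1, Cdx2 and Sox17 were near 0, while Foxa2, Gata4 and Onecut2 lay close together in all lines.

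Sox11, Dlx1 and Dlx2 were also higher. Sox11, a factor of embryonic neurons and mesenchyme, had 285 and 238 reads in 2838c3 and 0 in the other 4 libraries, at least 50.1-fold higher. Dlx1, a homeobox factor of forebrain interneurons, stood at 8.45 and 6.96 FPKM in 2838c3, against 0.0504 and 0.132 for 6419c5 and 0.196 and 0.135 for 6499c4 (difference 2.94, SE 0.16), and its neighbour Dlx2 at 10.6 and 11 FPKM in 2838c3, against 3.79 and 2.45 for 6419c5 and 2.08 and 1.51 for 6499c4 (1.81). Sulf2, which trims sulfate groups from heparan sulfate outside the cell, had 27.1 and 23.9 FPKM in 2838c3, against 1.39 and 0.444 for 6419c5 and 0.0264 and 0.0302 for 6499c4 (difference 4.26, SE 0.18). Its relative Sulf1 had 0 and 0 reads in 2838c3, against 258 and 134 for 6419c5 and 159 and 111 for 6499c4, so of these relatives Sulf2 was the higher and Sulf1 the lower in 2838c3. Other genes with the widest gap upward were Gjc1, a gap junction connexin (3.35), the adenosine receptor gene Adora1 (3.05) and the small heat shock gene Hspb1 (2.89).

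Duct and keratin genes that were called were lower in 2838c3, with 1 exception. Krt19, the keratin most used to mark duct cells, stood at 394 and 410.0 FPKM in 2838c3, against 1047 and 942 for 6419c5 and 1399.5 and 1391 for 6499c4 (difference -1.55, SE 0.07, adjusted p = 5.96e-05), so it remained one of the abundant mRNAs of 2838c3. Krt7 and Krt8 had differences of -1.27 (SE 0.06, adjusted p = 0.000454) and -0.65 (SE 0.06, adjusted p = 0.00398), and Krt18 was not called (-0.42). The widest gap of the group was that of Aqp5, a water channel of secretory ducts and glands, at 3.01 and 3.1 FPKM in 2838c3, against 56.6 and 53.1 for 6419c5 and 722 and 812 for 6499c4 (difference -5.67, SE 0.07, adjusted p = 5.81e-07). Car2, carbonic anhydrase 2 of bicarbonate-secreting duct cells, had 6.66 and 6.74 FPKM in 2838c3, against 24.1 and 28.3 for 6419c5 and 29.9 and 28.1 for 6499c4 (-1.89), and Tspan8 a difference of -0.91. Of 12 keratin genes tested, 6 were lower (50%) and 0 higher, where 12.8% and 13.6% of all genes were. Of 18 duct genes tested, 7 were lower (38.9%) and 1 higher (5.56%), with a median of -0.65. At least 1 of the lower keratin genes, and Epcam among the lower duct genes, passed the level filter through the other lines alone. These had to be lower, so both lower counts are descriptions to that extent. The higher gene was Bicc1, at 65.5 and 55.1 FPKM in 2838c3, against 46.5 and 36.8 for 6419c5 and 6.37 and 4.34 for 6499c4 (1.91), which lost its call without the G-1 library of 2838c3 (adjusted p 0.0585) or the vehicle library of 6419c5 (0.0626). Spp1, Muc1, Anxa3 and Sox9 were not called, with differences of 0.16, -0.36, 0.08 and 0.66.

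Cell junction genes split between both directions. Cdh1, the gene of E-cadherin, which holds epithelial cells together, stood at 352 and 329 FPKM in 2838c3, against 233 and 228 for 6419c5 and 178 and 169 for 6499c4 (difference 0.77, SE 0.06, adjusted p = 0.000878). Dsp, which anchors desmosomes to keratin filaments, had 99.3 and 92.6 FPKM in 2838c3, against 31.1 and 35.6 for 6419c5 and 15.7 and 19.3 for 6499c4 (1.95), and the kidney-enriched cadherin gene Cdh6 was higher by 1.35. Epcam, an epithelial adhesion molecule, was low in all lines and lowest in 2838c3, with 5 and 20 reads in 2838c3, against 58 and 41 for 6419c5 and 88 and 96 for 6499c4 (difference -1.72, SE 0.18). Dsc2, a desmosomal cadherin, had 0.185 and 0.398 FPKM in 2838c3, against 7.89 and 8.82 for 6419c5 and 3.88 and 6.13 for 6499c4 (-2.53), and Jup and F11r were lower too (-0.85 and -0.54). Of 27 junction and splicing genes tested, 4 were higher (14.8%) and 9 lower (33.3%), where 13.6% and 12.8% of all genes were. Epcam, Dsc2 and some other lower genes of the list passed the level filter through the other lines alone and so had to be lower. The lower count is a description to that extent. Fewer genes were lower without the G-1 library of 2838c3 or the vehicle library of 6419c5.

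Of 18 mesenchymal genes tested, 4 were higher (22.2%) and 3 lower (16.7%), where 13.6% and 12.8% of all genes were. Among the lower genes, Twist1 and Acta2 passed the level filter through the other lines alone and so had to be lower. A higher gene passed it through 2838c3 alone. Both counts are descriptions to that extent. Twist1, a factor of epithelial-mesenchymal transition, had 0 and 0 reads in 2838c3, against 43 and 23 for 6419c5 and 245 and 230 for 6499c4 (difference -3.10, SE 0.15), and S100a4 and Acta2 were lower too (-1.36 and -4.32), the last mainly against 6419c5 (-7.19, against 6499c4 -1.45). Loxl2, a collagen crosslinking enzyme, and the membrane protease gene Mmp14 were higher, by 1.13 and 0.77. Vim, Zeb1 and Cdh2 were not called, with differences of 0.14, 0.23 and -0.32.

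On the cell surface, 2 Ly6 genes were far lower in 2838c3. Ly6e, a small membrane-anchored protein, stood at 0 and 0 FPKM in 2838c3, against 184 and 153 for 6419c5 and 243 and 216 for 6499c4, and its 0 reads set it at least 1013-fold lower in 2838c3. Ly6a, which encodes the stem cell antigen Sca-1, had 0.117 and 0.819 FPKM in 2838c3, against 17.6 and 13.7 for 6419c5 and 92.2 and 59.6 for 6499c4 (difference -4.63, SE 0.24). Prom1, the gene of the progenitor antigen CD133, had 12.7 and 10.8 FPKM in 2838c3, against 42.1 and 41.9 for 6419c5 and 80.5 and 89.7 for 6499c4 (difference -2.25, SE 0.09, adjusted p = 4.81e-05). Higher in 2838c3 were the immune checkpoint molecule gene Cd276 at 34.7 and 29.95 FPKM in 2838c3, against 13 and 12.5 for 6419c5 and 18.8 and 16.6 for 6499c4 (1.06), the heparan sulfate carrier gene Gpc1 (0.98) and the tetraspanin gene Cd9 (0.76). Msln, a tumour antigen of pancreatic and mesothelial cells, was lower (-0.86), with an adjusted p of 0.00582 that became 0.0856 without the G-1 library of 6419c5. Of 23 surface antigen genes tested, 4 were higher (17.4%) and 8 lower (34.8%), where 13.6% and 12.8% of all genes were. Among the lower genes, Ly6e, Ly6a and Epcam passed the level filter through the other lines alone and so had to be lower. The lower count is a description to that extent. Fewer genes were called without the vehicle library of 2838c3 or the G-1 library of 6419c5.

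Genes of 2 adhesion receptors and of several cytokines that act on myeloid cells were higher. Vcam1, which leukocytes bind through an integrin, stood at 75.7 and 67.3 FPKM in 2838c3, against 14.6 and 14.2 for 6419c5 and 27 and 20.7 for 6499c4 (difference 1.89, SE 0.09, adjusted p = 7.5e-05), and Icam1, of like function, at 26 and 27.6 FPKM in 2838c3, against 3.42 and 3.26 for 6419c5 and 13.5 and 10.1 for 6499c4 (1.91). The neutrophil chemokine gene Cxcl3 had 21.1 and 21.8 FPKM in 2838c3, against 6.6 and 4.51 for 6419c5 and 1.29 and 1.23 for 6499c4 (difference 2.55, SE 0.14, adjusted p = 0.000263), Cxcl2 had a difference of 1.40, and Csf1, the macrophage growth factor, stood at 25.3 and 19.5 FPKM in 2838c3, against 16.2 and 11.7 for 6419c5 and 3.95 and 2.59 for 6499c4 (1.56). Of 18 chemokine and myeloid growth factor genes tested, 6 were higher (33.3%, against 13.6% of all genes) and 1 lower. Among the higher genes, Cxcl2 passed the level filter through 2838c3 alone and so had to be higher. The higher count is a description to that extent. The lower gene was Csf3, the neutrophil growth factor, at 0.0857 and 0 FPKM in 2838c3, against 3.08 and 4.31 for 6419c5 and 0.721 and 0.824 for 6499c4 (-1.46). Csf3 passed the level filter through the other lines alone and so had to be lower. Its call was lost without either library of 2838c3 or of 6499c4. Il1rn, the antagonist of the interleukin 1 receptor, went the other way, at 3.65 and 3.05 FPKM in 2838c3, against 205 and 193 for 6419c5 and 106 and 112 for 6499c4 (difference -5.10, SE 0.08, adjusted p = 2.61e-07). Il5ra, an interleukin receptor chain, was lower too (-3.87). H2-K1, a classical MHC class I gene, had 55.9 and 67.7 FPKM in 2838c3, against 114 and 131 for 6419c5 and 85.6 and 96 for 6499c4 (-0.77), while H2-D1 and B2m were not called (-0.55 and 0.49). Of 12 genes of class I presentation tested, 3 were lower and 0 higher, so 25% were called, near the 26.4% of all genes. Once each chromosome was centred on its median, 1 was lower.

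**Figure D3:**
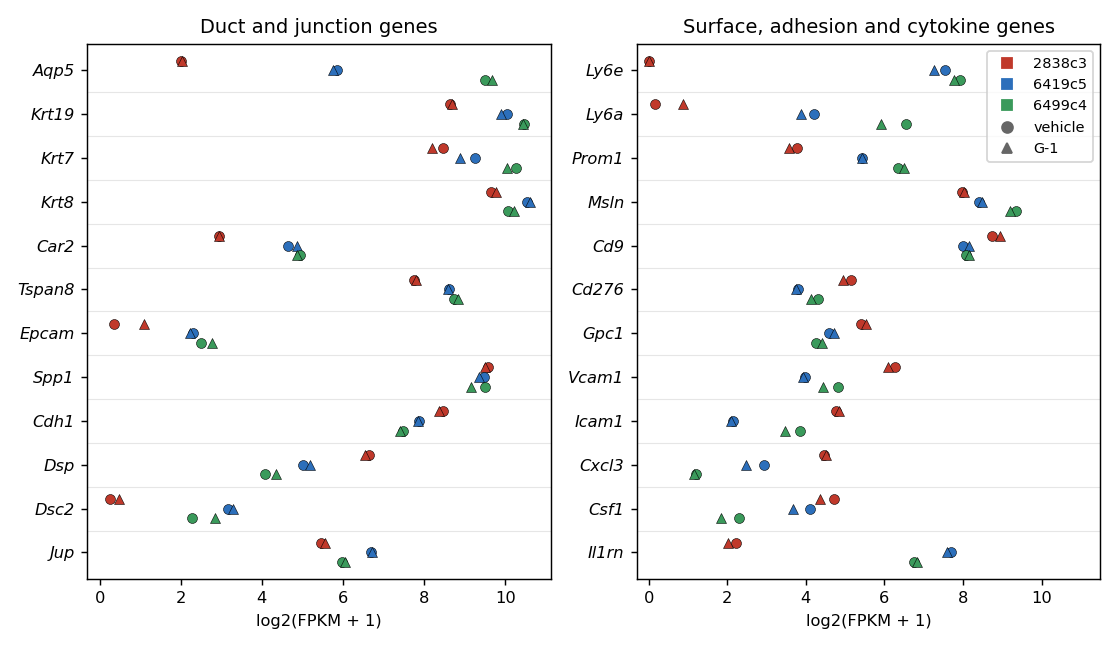
Log2(FPKM + 1) of duct and junction genes (left) and of surface, adhesion and cytokine genes (right) in the 6 libraries, 1 point per library, with the same symbols and colours as for the lineage genes. The 2838c3 points lie below the others for Aqp5, Krt19, Dsc2, Ly6e, Prom1 and Il1rn and above them for Dsp, Cdh1, Vcam1, Icam1 and Cxcl3.

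Receptors and transporters also differed. Ror1, a Wnt5a receptor of embryonic tissue, stood at 4.92 and 3.8 FPKM in 2838c3, against 1.74 and 1.3 for 6419c5 and 0.401 and 0.211 for 6499c4 (difference 1.56, SE 0.14), and the ephrin receptor gene Ephb3 at 4.62 and 5.97 FPKM in 2838c3, against 12.7 and 11.7 for 6419c5 and 9.51 and 11.6 for 6499c4 (-0.98). Of 20 receptor tyrosine kinase genes tested, 6 were higher (30%) and 1 lower (5%), where 13.6% and 12.8% of all genes were. Among the higher genes, Ror1 passed the level filter through 2838c3 alone and so had to be higher. Fewer genes were higher without either library of 2838c3 or the G-1 library of 6419c5. Abcc4, a pump for organic anions and cyclic nucleotides in the kidney tubule and elsewhere, had 69 and 65.2 FPKM in 2838c3, against 15.7 and 14.8 for 6419c5 and 17.3 and 14.7 for 6499c4 (difference 2.03, SE 0.07, adjusted p = 1.07e-05). Abcb1a, the drug efflux pump P-glycoprotein, was lower at 5.21 and 4.24 FPKM in 2838c3, against 26 and 24.1 for 6419c5 and 14.7 and 15.4 for 6499c4 (-1.84), as was the iron exporter gene Slc40a1 (-2.31) and Slc7a11, which imports cystine (-1.89). Of 172 solute carrier genes tested, 30 were higher (17.4%) and 25 lower (14.5%), close to the shares over all genes. Without 1 library of 2838c3 the counts were 16 and 17 (vehicle) and 17 and 16 (G-1), and without 1 of 6419c5 14 and 15 (vehicle) and 20 and 15 (G-1).

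The enzymes of cholesterol synthesis were the list with the largest share of higher genes, among lists with more than 1 gene tested. All 25 listed genes passed the level filter, 17 were higher (68%, against 13.6% of all genes) and 1 lower (4%, against 12.8%), and the median difference was 0.79. Fdft1, squalene synthase, the first enzyme committed to sterols, stood at 41.3 and 51.9 FPKM in 2838c3, against 12.2 and 15.7 for 6419c5 and 16.7 and 18.3 for 6499c4 (difference 1.52, SE 0.08, adjusted p = 0.000109). Msmo1, which removes methyl groups from lanosterol derivatives, had 278 and 324 FPKM in 2838c3, against 113 and 125 for 6419c5 and 96.3 and 88.3 for 6499c4 (1.51), and Idi1, which makes an isoprene building block, 12.8 and 14.4 FPKM in 2838c3, against 3.52 and 5.38 for 6419c5 and 5.1 and 4.61 for 6499c4 (1.38). Both 2838c3 libraries lay above all 4 others in each. Along the pathway Hmgcs1, Pmvk, Mvd, Fdps, Sqle, Cyp51 and Sc5d were higher by 0.57 (Sqle) to 1.28 (Fdps), and so was Srebf2, the gene of SREBP2, at 113 and 138 FPKM in 2838c3, against 74.6 and 80.4 for 6419c5 and 82.1 and 84.9 for 6499c4 (0.63).

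Other members of the list, Mvk, Tm7sf2, Hsd17b7, Ebp, Dhcr7 and Stard4, were not called. The lower gene was Insig1, which holds SREBP2 back, at 25.5 and 28.7 FPKM in 2838c3, against 29.8 and 38.2 for 6419c5 and 34.3 and 38.4 for 6499c4 (-0.36); it lost its call without any 1 library other than the G-1 library of 6499c4, with an adjusted p of up to 0.23. The list kept 15 to 16 higher genes with any 1 library left out. Its summed level was 4586 and 5543 RPM in 2838c3 (lowest and highest library) and 2531 to 3198 in the other 4.

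Several genes of fatty acid synthesis were higher. Scd1, which puts the first double bond into saturated fatty acids, stood at 168 and 199 FPKM in 2838c3, against 53.7 and 69.3 for 6419c5 and 73.2 and 82.3 for 6499c4 (difference 1.40, SE 0.07, adjusted p = 6.45e-05), and Scd2, Fads2, Fads1, Elovl6, Agpat2 and Fabp5 were higher by 0.75 (Elovl6) to 1.30 (Fabp5). Fasn was called at 0.35, but with an adjusted p of 0.058 to 0.211 without any 1 library of 2838c3 or 6419c5, and Acly and Acaca, which supply it, were not called (0.07 and 0.33). Of 27 synthesis and storage genes tested, 10 were higher (37%, against 13.6% of all genes) and 1 lower (3.7%, against 12.8%), with a median of 0.33. Among the higher genes, Cidec passed the level filter through 2838c3 alone and so had to be higher. The lower gene was Plin2, the coat protein of lipid droplets, at 109 and 123 FPKM in 2838c3, against 168 and 182 for 6419c5 and 197 and 203 for 6499c4 (difference -0.69, SE 0.06, adjusted p = 0.000815), while another droplet gene, Cidec, was higher (2.14).

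Genes of fatty acid oxidation that were called were lower. Acadvl, the first dehydrogenase for very long chains in mitochondria, stood at 17 and 18.1 FPKM in 2838c3, against 36.7 and 37.7 for 6419c5 and 46.3 and 46.7 for 6499c4 (difference -1.20, SE 0.07, adjusted p = 0.00015). Acaa2, the thiolase of the last step, and Ech1, an isomerase for unsaturated chains, were lower (-1.12 and -1.01), as were Echs1 (-0.86), Acadm (-0.74), Oxct1 (-0.51) and Hadh (-0.42). Cpt1a, which lets long chains into mitochondria, had 50.9 and 64.2 FPKM in 2838c3, against 33.8 and 43.4 for 6419c5 and 38.4 and 57.4 for 6499c4 and was not called (0.42, adjusted p = 0.0519). Of 25 genes tested, 13 were lower (52%, against 12.8% of all genes) and 0 higher (against 13.6%), with a median of -0.35. At least 1 of the lower genes passed the level filter through the other lines alone and so had to be lower. Without 1 library the lower count was 7 to 11 and the higher count at most 1. The lower count was 8 without either library of 2838c3 and 7 without the vehicle library of 6419c5.

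**Figure D4:**
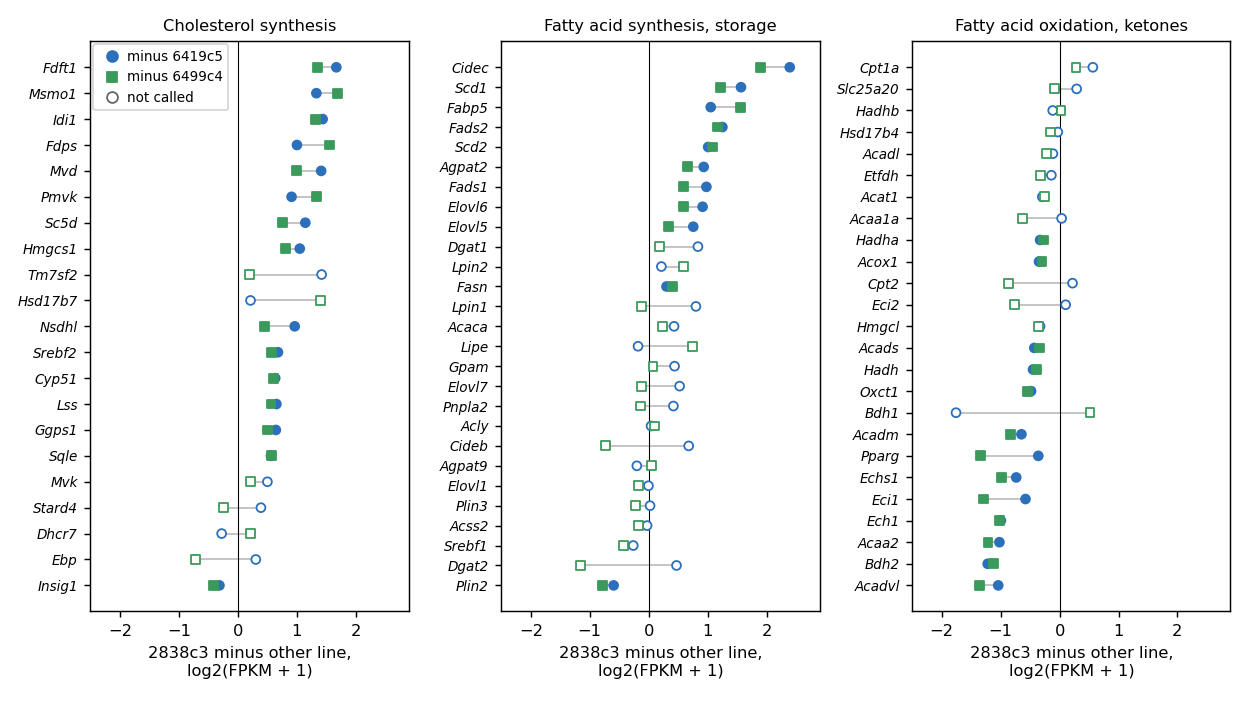
Log2(FPKM + 1) difference of 2838c3 from 6419c5 (blue circles) and from 6499c4 (green squares) for 21 of the 25 tested genes of cholesterol synthesis (left) and each tested gene of fatty acid synthesis and storage (middle) and fatty acid oxidation and ketone metabolism (right), sorted by the mean of both; open symbols mark genes not called. In the left panel 14 of the 21 genes shown were called above 0, in the middle 10 of 27, and in the right 13 of 25 were called below 0.

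Retinoid and aldehyde enzymes that were called were mostly lower. Aldh3a1, which oxidises aromatic and medium-chain aldehydes, stood at 8.73 and 9.5 FPKM in 2838c3, against 62.2 and 71.9 for 6419c5 and 59.2 and 62.7 for 6499c4 (difference -2.68, SE 0.07, adjusted p = 2.13e-06). Aldh1a3, which makes retinoic acid, had 0.55 and 0.965 FPKM in 2838c3, against 4.49 and 6.43 for 6419c5 and 20.4 and 23.9 for 6499c4 (-2.80), and Rdh10, the enzyme before it, 192 and 209.8 FPKM in 2838c3, against 273 and 313 for 6419c5 and 309.7 and 355 for 6499c4 (-0.63). Rbp4, the carrier of retinol, and Rxra, the shared partner of nuclear receptors, were higher, by 1.73 and 1.11. Of 23 genes tested, 11 were lower (47.8%) and 4 higher; the lower count was 6 without the G-1 library of 2838c3 or that of 6419c5. The higher count was 2 without either of those, the vehicle library of 2838c3 or that of 6499c4. Of all genes tested, 12.8% were lower and 13.6% higher. Some of the lower genes, such as Aldh1a3, passed the level filter through the other lines alone and so had to be lower. The lower count is a description to that extent. All 5 tested genes of UDP-glucuronosyl- and sulfotransferases, which conjugate drugs, bile acids and steroids, were called, 4 lower and 1 higher. Among them Ugt1a7c and Ugt1a6a passed the level filter through the other lines alone and so had to be lower, which makes this count a description only. The higher gene was Sult2b1 (0.78), a call lost without the vehicle library of 2838c3 or either library of 6419c5 (adjusted p 0.0519 to 0.138). The lower genes included Ugt1a7c (-3.99), Ugt1a6a (-1.63) and Sult1c2 (-2.497); exons shared within the Ugt1a cluster leave the split of reads between its genes uncertain.

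In glutamine, purine and glutathione metabolism single genes stood out. Gls2, a mitochondrial glutaminase, stood at 2.68 and 2.31 FPKM in 2838c3, against 28.5 and 28.5 for 6419c5 and 28.4 and 29.3 for 6499c4 (difference -3.09, SE 0.09, adjusted p = 3.21e-06), while Glud1, which feeds glutamate into the citrate cycle, was higher at 189 and 188 FPKM in 2838c3, against 130.1 and 129 for 6419c5 and 116 and 110.5 for 6499c4 (0.63); with each chromosome centred on its median its difference was 0.19 and was not called. Xdh, xanthine oxidoreductase, had 14 and 9 reads in 2838c3, against 151 and 135 for 6419c5 and 209 and 234 for 6499c4 (-2.28). Me1, malic enzyme, which makes NADPH in the cytosol, had 132 and 146 FPKM in 2838c3, against 55.2 and 59.1 for 6419c5 and 72 and 70.7 for 6499c4 (difference 1.11, SE 0.06, adjusted p = 0.000184), and Tkt of the pentose phosphate pathway was higher by 0.65. Gss, the last enzyme of glutathione synthesis, and the transferase genes Gstm2 and Gsta4 were lower, with differences of -1.02, -2.39 and -1.33, and the quinone reductase gene Nqo1 was higher by 2.77. Of 38 glutathione and NRF2 genes tested, 9 were higher (23.7%) and 7 lower (18.4%), where 13.6% and 12.8% of all genes were. Some of the lower genes, such as Gstm2, passed the level filter through the other lines alone and so had to be lower. The higher count was 5 after chromosome centring. Fewer genes were also higher without either library of 2838c3 or the vehicle library of 6419c5. Pfkm, the muscle type of phosphofructokinase, was higher (0.84) and Pfkp, the platelet type, lower (-1.41). Glycolysis as a list had 3 genes higher (12.5%) and 2 lower (8.33%) of 24, no more than the 13.6% and 12.8% of all genes, and 1 higher without the G-1 library of 2838c3 or either library of 6419c5.

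Among genes altered in pancreatic tumours, Cdkn2a, which encodes the inhibitors p16 and p19Arf, stood at 47.8 and 50.1 FPKM in 2838c3, against 96 and 102 for 6419c5 and 142 and 194 for 6499c4 (difference -1.37, SE 0.09, adjusted p = 0.000495). Its neighbour Cdkn2b had 13.3 and 13.5 FPKM in 2838c3, against 26.4 and 26.5 for 6419c5 and 30.9 and 36.7 for 6499c4 (-1.10). Ccnd1, the gene of cyclin D1, was higher by 0.77, with an adjusted p of 0.0734 without the vehicle library of 6419c5. Trp53 and Myc were not called, with differences of 0.12 and -0.17. All 29 listed genes were tested, 8 were higher (27.6%, against 13.6% of all genes) and 5 lower (17.2%, against 12.8%), and the higher count was 2 without either library of 2838c3, 1 without either of 6419c5 and 4 without either of 6499c4.

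In 27 genes 2838c3 had 0 reads in both libraries while each other library had at least 30; in 3 genes (Sox11, Sall1 and the gene model Gm10451) it was the reverse. Ranked by the lowest library of the other lines over the 3-read floor, Ly6e was followed by Maoa, which breaks down serotonin and noradrenaline, with 0 and 0 reads in 2838c3, against 1243 and 1012 for 6419c5 and 2496 and 2235 for 6499c4 (at least 496-fold lower), Prdx4, a peroxidase of the endoplasmic reticulum (at least 131-fold), and Cdhr5, a cadherin of the brush border (at least 127-fold). Cacna2d1, Arhgap44, Rab32 and Evc2 were at least 112, 107, 106 and 85-fold lower. Of the 27 genes, 7 lie on the X chromosome (25.9%), among them Maoa, Maob and Prdx4, where 2.95% of all genes with at least 30 reads in each of the 4 other libraries do.

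Some of these genes are neighbours on GRCm38. Pdx1 and Cdx2 lie 25.05 kb apart on chromosome 5, and the flanking genes Polr1d, Lnx2 and Pan3 were read in every library (at least 193 reads). Maoa and Maob lie 21.5 kb apart on the X chromosome, Maob having 0 and 0 reads in 2838c3, against 91 and 48 for 6419c5 and 35 and 34 for 6499c4; the next gene read in all lines, Fundc1, had 304 and 252 reads in 2838c3, against 384 and 284 for 6419c5 and 528 and 461 for 6499c4. Evc and Evc2, which act together in hedgehog signalling at the cilium, lie 1.53 kb apart, and both were at 0 in 2838c3 alone. On the X chromosome Mageh1, Rragb and Klf8 were all at 0 in 2838c3, with 3 to 149 reads in the other libraries, and Ubqln2 beyond them had 542 and 448 reads in 2838c3, against 711 and 513 for 6419c5 and 1146 and 1026 for 6499c4. On chromosome 15 Ly6e, Ly6a and Ly6c1 had 0 to 7 reads in 2838c3, while Them6 and Jrk on one side were read in all lines. The DNA of the lines was not measured.

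Whole chromosomes also leaned one way. The median difference of 2838c3 from the mean of the other lines was 0.44 on chromosome 14, 0.36 on 13, 0.33 on 8 and 0.31 on 19, and -0.36 on both 10 and 11. On 10 and 11 each of 13 windows of 10 Mb had a median below 0, and on 8, 13, 14 and 19 each of 13, 12, 9 and 6 windows had one above 0. Such a uniform sign was also seen elsewhere. All 18 windows of chromosome 2 were above 0, and all 8 of chromosome 16 and all 13 of the X chromosome were below 0. Chromosomes 10 and 11 held 13.2% of the genes with a position and 35.6% of the lower calls (489), and 8, 13, 14 and 19 held 16.4% of genes and 40.5% of the higher calls (591). Chromosome 16 was low only against 6419c5 (median -0.62, against 6499c4 0.08).

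The X chromosome was low mainly against 6499c4 (median -0.46, against 6419c5 -0.08). Xist, the RNA that coats the inactive X, stood at 30.1 and 26.5 FPKM in 2838c3, against 24.6 and 26.9 for 6419c5 and 0.0061 and 0.00696 for 6499c4, so 2838c3 and 6419c5 had it and 6499c4 did not. With each chromosome centred on its median in each library, 1942 genes were called (949 higher, 993 lower), and Pax2, Cdh16, Cldn2, Pdx1 and Cdx2 were among them, with differences of 3.68, 3.60, 3.54, -3.85 and -5.28. After centring the counts stayed at 16 of 25 higher for cholesterol synthesis, 12 of 25 lower for fatty acid oxidation and 7 of 11 higher for the nephric list. Not called after centring were Agpat2 (0.56), Csf3 (-1.10), Ephb3 (-0.72), Fundc1, Glud1, Hnf4a (0.35), Hhex (0.73), Insig1 (-0.31), Jup (-0.49) and Tkt (0.20). Centring was chosen after the chromosome medians had been seen. Chromosome copy number was not measured.

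**Figure D5:**
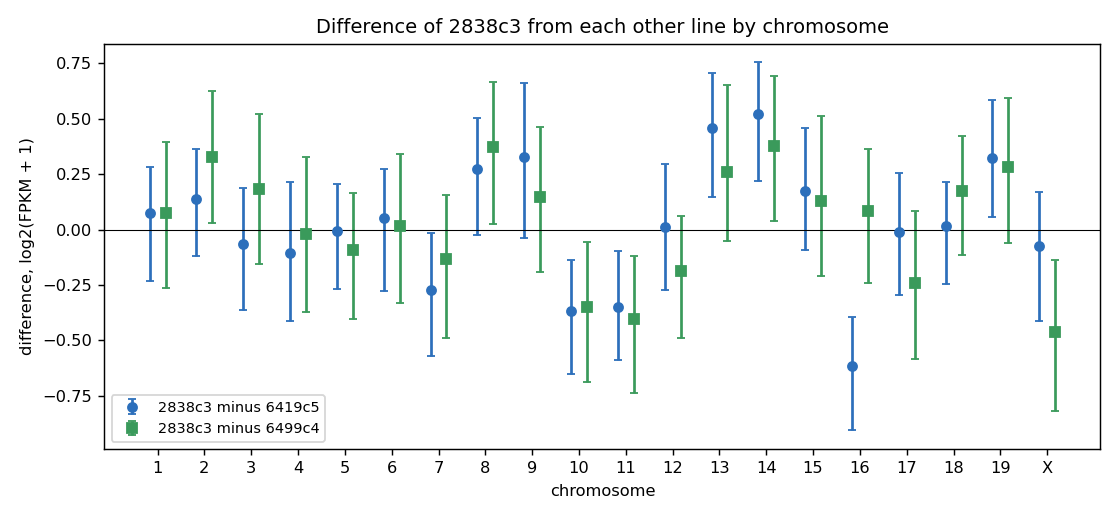
Median log2(FPKM + 1) difference of 2838c3 from 6419c5 (blue circles) and from 6499c4 (green squares) over the genes of each chromosome, with bars from the lower to the upper quartile of genes. Chromosomes 8, 13, 14 and 19 lie above 0 and 10 and 11 below 0 against both lines, and chromosome 16 below 0 against 6419c5 alone.

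Over all 10748 genes tested, the median size of the G-1 minus vehicle difference within 2838c3 was 0.13, and that of the difference between the vehicle libraries of 2838c3 and of 6419c5 or 6499c4 was 0.36 and 0.39. Each of these sets 1 library against another. Whether the response of 2838c3 to G-1 differed from that of the other lines was tested with a product term, which leaves 1 residual degree of freedom and leans on variances pooled over genes. It called 5 of 10748 genes (0.0465%), 1 higher (0.0093%) and 4 lower (0.0372%), all small RNA genes of at most 14 reads per library, and 422 had an unadjusted p under 0.05. None of the 212 genes picked for naming was among them (lowest adjusted p 0.32).

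Markers of several other cell types were few in all libraries. Of 16 leukocyte markers 12 had at most 3 reads in each library, and almost all of their 106 to 109.9 RPM in 2838c3 (72.4 to 108 in the others) were from Cd14, which also epithelial cells can express; Ptprc had at most 7 reads. Fibroblast markers summed to 2.65 to 2.69 RPM in 2838c3 and 3.46 to 6.76 in the others, endothelial markers to 2.42 to 2.58 and 5.58 to 12.3, and endocrine markers to 0.11 to 1.04 and 0.58 to 6.39, with Ins1, Ins2 and Gcg at 0. Hepatocyte markers summed to 1587 to 2156 and 149 to 2205 RPM, nearly all from Apob, and Alb had at most 6 reads. Muscle markers summed to 27.8 to 31.6 RPM in 2838c3 and 43.6 to 171 in the others. Among them Tnnt2 had 279 and 235 reads in 2838c3, against 1227 and 866 for 6419c5 and 368 and 344 for 6499c4, and was lower (-1.43). Neural crest and glia markers summed to 62.2 to 69.5 RPM in 2838c3 and 50.6 to 81.7 in the others. Acinar enzymes summed to 4.37 to 9.22 and 3.10 to 4.83 RPM. Cela1 had 37 and 69 reads in 2838c3, against 5 and 1 for 6419c5 and 11 and 4 for 6499c4 (difference 2.04). It was the only acinar gene past the level filter, which it passed through 2838c3 alone, so it had to be higher.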

How the data were processed

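Libraries were made from total RNA of 3 mouse lines, 1 after vehicle and 1 after G-1 in each (NEBNext Ultra kit, per the labels' protocols). The authors deposited FPKM values per gene; STAR and DESeq2 appear in the submitters' processing notes without a role, and neither genome build nor annotation is given in the sources used here. The table holds 24421 genes. Per gene, all values of the 15712 genes above 0 were whole multiples of 1 read (within 0.01 reads), which gave read counts per library and showed that the deposited scale follows median-of-ratios size factors.

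Genes whose mean over the 6 libraries reached 1 FPKM were fitted as log2(FPKM + 1) with line and treatment in limma 3.58.1 (R 4.3.3), with a variance trend, 2 residual degrees of freedom and 7.35 in all after moderation. The adjusted p of a gene is the larger of its p-values against each other line, adjusted by the method of Benjamini and Hochberg over all 10748 genes. The fit was also run on simulated data, whose outcome is not given here. Positions and promoters are RefSeq's, matched by symbol (10703 of 10748 tested genes have a position). Since the line is the unit, the vehicle and G-1 libraries of a line pair by design; their deviations from the mean of their treatment correlated at 0.906, 0.871 and 0.882 in 2838c3, 6419c5 and 6499c4.

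Pax2, Cdh16 and Cldn2, up to 15 genes per direction with the widest smaller gap, up to 4 called members per list and direction, genes that define a cell type, and up to 8 genes at 0 per direction were named by rule. Members given as not called, neighbours of genes at 0, and the called genes Acadm, Agpat2, Csf1, Cyp51, Dlx2, Echs1, Elovl6, F11r, Fads1, Fasn, Fdps, Gsta4, Hadh, Hmgcs1, Jup, Msln, Mvd, Oxct1, Pmvk, Rdh10, Sc5d, Scd2, Sqle, Srebf2, Sulf1 and Tkt, with Xist, fall outside the rule and were named after their values were seen. The members and lists were chosen with earlier results of these data known. Names that the table had turned into dates (27) and 2 duplicated names were not used as list members. Some named members are not reported here.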

Additional observations from a re-analysis of the deposited data

Results flagged for a closer look

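The response to G-1 (G-1 minus vehicle, log2(FPKM + 1)) differed between 2838c3 and the mean of the other lines in 5 small RNA genes, by limma's test of the difference itself, which has 1 residual degree of freedom. Snord49b differed by -4.17 (adjusted p = 0.0119), with 5 and 1 reads in the vehicle and G-1 libraries of 2838c3, 0 and 1 for 6419c5 and 2 and 14 for 6499c4. Snord72 differed by -3.20 (adjusted p = 0.00876), with 8 and 3 reads, then 2 and 6, then 2 and 9, in the same order of lines. Snord34 differed by -4.03 (adjusted p = 0.0119), with reads of 13 and 0, then 3 and 2, then 5 and 2. Snora43 differed by 3.95 (adjusted p = 0.0300), with reads of 0 and 6, then 6 and 2, then 3 and 0. Scarna10 differed by -4.35 (adjusted p = 0.0300), with reads of 2 and 0, then 0 and 1, then 0 and 3. None of the 5 calls was made without the variance trend or without the filter on low values, where 0 genes were called. All 5 rest on at most 14 reads in any library.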

How the results depend on the processing

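The count of genes apart from both other lines (2834) was 2244 to 3490 under the other scalings, filters, pseudocounts, moderation and the count model on recovered reads, and 3343 with each comparison adjusted on its own; asking for 2-fold from each line gave 550. It was 1541 to 2395 with 1 library left out, and the counts against 6419c5 and 6499c4 alone were then 3430 to 5677 and 4480 to 5577. Without the treatment covariate, which acts as the replicate block across lines, the counts were 2538 against both lines, 5157 against 6419c5 and 5642 against 6499c4. Centring each chromosome, chosen after seeing the data, gave 1942. Genes with a different G-1 response (5) numbered 9 and 10 at pseudocounts of 0.1 and 0.01, 0 without a filter on low values, 19 with quantile and 13 with upper-quartile scaling, 0 without a variance trend, 10 with robust moderation and 12 with the count model; leaving out a library could not be fitted for it. Of 133 called genes named in the report, 117 kept the call under each alternative that used all libraries, 121 with any 1 library left out and 112 under both kinds, and 0 reversed; Krt8 lost it under quantile scaling, Nqo1 at both smaller pseudocounts and Csf1 without the covariate. The median difference over all genes ran from -0.0428 to 0.0289 over the settings. Genes under a mean of 1 FPKM were too shallow to test.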
